A study of Homo sapiens with 4 samples.

Results

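The 10 genes described here are ARNT and 9 genes of the hypoxia-inducible factor (HIF) pathway: EPAS1, EGLN1, VHL, SLC2A1, HK2, PDK1, PFKFB4, KDM3A and P4HA2. They are listed members of the pathway whose features lie on chromosomes 1 to 5, and each was found as a feature to which the platform annotation gives exactly 1 gene symbol. All 10 were present, with 1 feature each, among 6647 features with 1 symbol and 13493 features in all. Cells of SK-N-SH, a human neuroblastoma line that grows attached, were profiled after 24 h in 1e-10 M 2,3,7,8-tetrachlorodibenzo-p-dioxin (TCDD), a dioxin that binds the aryl hydrocarbon receptor (AhR), on 2 arrays. They were set against cells of the line given only the solvent, dimethyl sulfoxide (DMSO), on 2 arrays, to ask which transcripts a low dose of TCDD alters. DMSO was at most 0.1% in both groups. Cells of both groups were grown in medium with 10% serum under 5% CO2 and were about 70% confluent when exposed, and no label names a change of oxygen. Replicates are titled as biological, without naming separate cultures or days, so p-values measure the spread between these arrays only.

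ARNT and the receptors it pairs with belong to the bHLH-PAS family of transcription factors. AhR bound to a ligand such as TCDD pairs with ARNT on sites around the letters GCGTG and raises genes such as CYP1A1, while the HIF alpha subunits HIF-1 alpha and HIF-2 alpha pair with the same ARNT on sites around ACGTG or GCGTG. When oxygen is ample, prolyl hydroxylases mark the alpha subunits and VHL directs them to degradation, and when oxygen is scarce the HIF dimers raise genes of glucose uptake, glycolysis and matrix synthesis. Because both pathways use ARNT, competition for it has been studied as a link between dioxin and hypoxia responses.

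All 4 arrays gave similar overall signals, with medians of 8.19 to 8.22 on the log2 scale. Signals of the 10 genes lay between 9.12 and 10.8 as means over the arrays, and all 10 exceeded 8.38, below which 95% of 71 olfactory receptor features lay. Of all 13493 features, 7313 lay below that level, so many others exceeded it as well. Signals of different features are not levels that can be set against each other. The 8.38 level is therefore only a rough mark, and TCDD was compared with DMSO within each gene. Interquartile ranges over features were 2.21 and 2.20 on TCDD replicates 1 and 2, against 2.13 and 2.00 on DMSO replicates 1 and 2. DMSO replicate 2 thus had the narrowest spread, and it read lower than DMSO replicate 1 for all 10 genes. SK-N-SH is known to hold neuroblastic and substrate-adherent cells, and in such bulk RNA fewer cells of a type and less RNA per cell cannot be told apart. Of 20 noradrenergic neuroblast markers 9 were measured, and all 9 lay above the 8.38 level, HAND2, GATA2 and ISL1 among them. Of 8 measured mesenchymal markers 6 lay above it. The labels give the tissue as brain and the cells as a neuroblastoma line.

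The letters that HIF dimers recognise are common near the starts of these genes and of genes in general. Of the 10 genes, 9 (all but VHL) matched RefSeq promoter windows of 300 bases (250 before and 50 after the start, GRCh38.p14), 12 windows in all, since HK2, KDM3A and PDK1 had several. ACGTG or GCGTG, searched on both strands, was present in 9 of the 12 windows and in 7 of the 9 genes, against 48.4% of 35116 windows of all genes. ACGTG alone was present in 21.4% of all windows and in windows of EGLN1, HK2 and PDK1, and GCGTG alone in 36.5% of all windows and in windows of EPAS1, HK2, KDM3A, PFKFB4 and SLC2A1. GCGTG is also the core to which AhR with ARNT binds, so these letters cannot assign a match to either dimer. The longer form TNGCGTG of the AhR site, searched on both strands, was present in 5.51% of all windows and in 0 of the 12. In SLC2A1 the match began 26 bases after the start. In a second window of HK2 the ACGTG letters were part of CACGTG, the E-box of other bHLH factors, which 7.26% of all windows contained. A match is a description of letters and not a site shown to be bound.
The stretches below show the matches upstream of the first start of 5 genes (for HK2, those nearest the start), since they let the letters of an oxygen sensor, a HIF subunit and targets be read side by side, with matches in capitals on the strand of the gene (CACGT is ACGTG on the other strand).
EGLN1, chr1:231422288-231422320, minus strand: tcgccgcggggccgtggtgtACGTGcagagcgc
EPAS1, chr2:46297270-46297314, plus strand: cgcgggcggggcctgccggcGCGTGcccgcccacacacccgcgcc
HK2, chr2:74834052-74834103, plus strand: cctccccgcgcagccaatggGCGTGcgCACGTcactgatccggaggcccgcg
KDM3A, chr2:86441325-86441369, plus strand: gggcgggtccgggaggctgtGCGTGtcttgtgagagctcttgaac
PFKFB4, chr3:48556945-48556989, minus strand: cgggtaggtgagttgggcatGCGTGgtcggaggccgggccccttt
The EGLN1 match began 13 bases before the start, and those of EPAS1 and PFKFB4 117 and 166 bases before it.

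None of the 10 genes was called different between TCDD and DMSO, although every one read slightly higher in TCDD. The differences ran from 0.11 to 0.22 on the log2 scale (1.08-fold to 1.16-fold), with a median of 0.16. At a limma adjusted p under 0.05 over all features, 0 of 10 were called, against 17.4% of all features in either direction, and 0 of 10 reached 1.5-fold at an unadjusted p under 0.05, against 1.67%. At an unadjusted p under 0.05, 8 of 10 were higher, against 22.8% of all features and 40.4% of the 3066 features within the same range of signal. The lowest TCDD array lay above the highest DMSO array for 10 of 10, which was also so for 40.7% of all features and for 71% of those within that range of signal. Features of this brightness as a whole read higher on the TCDD arrays, with a median difference of 0.12 and quartiles of 0.053 and 0.18, whereas the median over all features was 0.023.

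**Figure D1:**
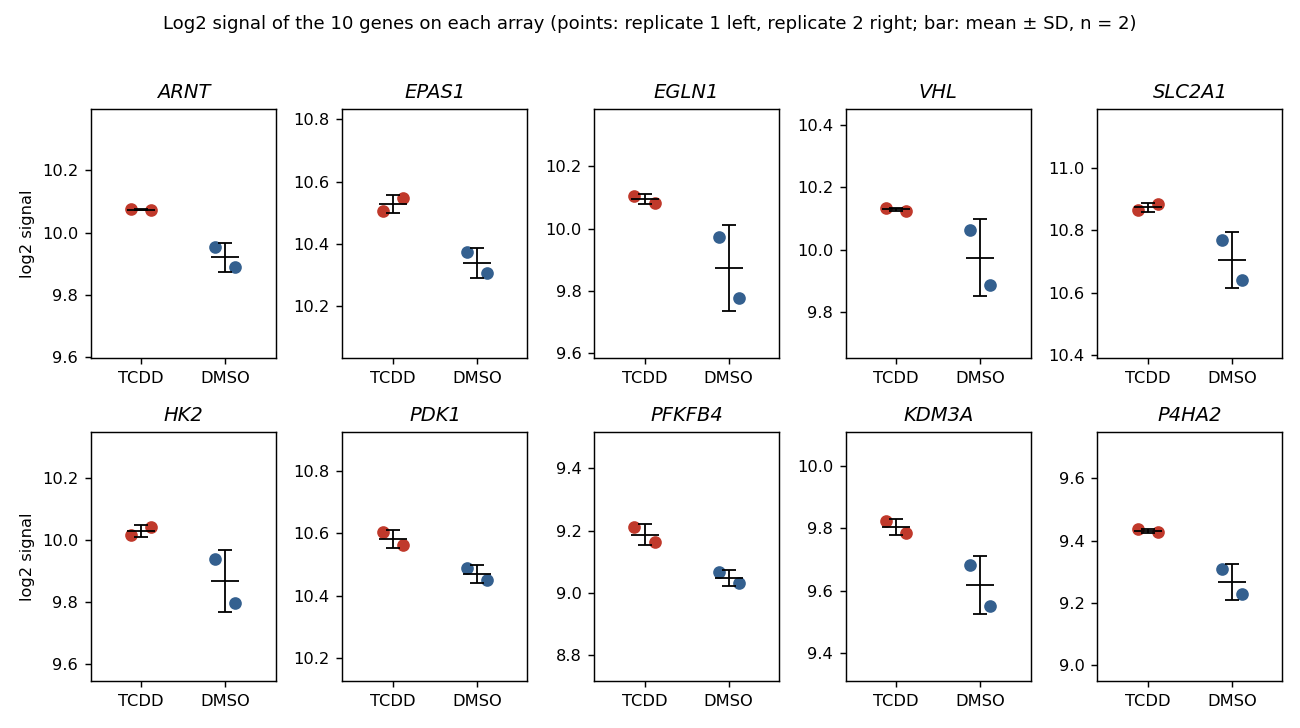
Log2 signal of the 10 genes (vertical axis, 0.8 log2 units in each panel) on the 2 TCDD arrays and the 2 DMSO arrays, with points for arrays and bars for the mean ± SD. Both TCDD points lie above both DMSO points in each panel, and the DMSO points of EGLN1 and VHL lie farthest apart, by 0.20 and 0.18.

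ARNT, the common partner of AhR and the HIF alpha subunits (feature TC01003212.hg.1, chromosome 1), read 10.07 and 10.07 on the TCDD arrays, against 9.95 and 9.89 on the DMSO arrays (log2 signal, replicates 1 and 2). The TCDD arrays were nearly equal, and both lay above the DMSO arrays. Means were 10.07 ± 0.0021 in TCDD and 9.92 ± 0.046 in DMSO (SD, n = 2 each), and ARNT differed by 0.15 (SE 0.053, limma adjusted p = 0.0886). The 95% interval of that difference ran from 0.024 to 0.28, so that a change of ARNT beyond 1.21-fold lay outside it. After cyclic loess normalization, which removes differences between arrays that depend on signal, the ARNT difference was 0.030 (95% interval -0.065 to 0.12, limma adjusted p = 0.588).

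EPAS1 encodes HIF-2 alpha, an oxygen-regulated partner of ARNT that is prominent in cells of the sympathetic lineage and in neuroblastoma. Its feature (TC02000281.hg.1, chromosome 2) read 10.51 and 10.55 on the TCDD arrays, against 10.37 and 10.31 on the DMSO arrays. The gap between the groups exceeded the gap within either group. Means were 10.53 ± 0.029 in TCDD and 10.34 ± 0.049 in DMSO (SD, n = 2 each), and the difference of 0.19 (SE 0.054) had the smallest adjusted p of the 10 genes (limma adjusted p = 0.0602). With the dimmest 25% or 50% of features left out before the fit, the same difference had a limma adjusted p of 0.0473 or 0.0386, and after cyclic loess normalization the EPAS1 difference was 0.061 (limma adjusted p = 0.328).

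The oxygen-sensing genes were EGLN1, which encodes the prolyl hydroxylase PHD2 that marks HIF alpha subunits, and VHL, the substrate-binding subunit of the ubiquitin ligase that then removes them. EGLN1 (TC01003968.hg.1, chromosome 1) read 10.11 and 10.08 on the TCDD arrays, against 9.97 and 9.78 on the DMSO arrays. VHL (TC03000055.hg.1, chromosome 3) read 10.13 and 10.12 on the TCDD arrays, against 10.06 and 9.89 on the DMSO arrays. In both genes DMSO replicate 2 was the low array and the other 3 lay closer together. EGLN1 averaged 10.09 ± 0.015 in TCDD and 9.87 ± 0.14 in DMSO (SD, n = 2 each), the largest difference of the 10 at 0.22 (SE 0.074, limma adjusted p = 0.0836). VHL averaged 10.13 ± 0.0057 in TCDD and 9.97 ± 0.12 in DMSO (SD, n = 2 each), differing by 0.15 (SE 0.070, limma adjusted p = 0.154). For VHL the gap between the DMSO arrays, 0.18, was larger than the difference between the groups. Without DMSO replicate 2 the difference fell to 0.12 for EGLN1 and to 0.066 for VHL, and without DMSO replicate 1 it was 0.32 (limma adjusted p = 0.026) and 0.24 (limma adjusted p = 0.0306).

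Genes of glucose use that HIF dimers induce differed by 0.11 to 0.17. SLC2A1, the glucose transporter GLUT1 (TC01002578.hg.1, chromosome 1), read 10.86 and 10.88 on the TCDD arrays, against 10.77 and 10.64 on the DMSO arrays. HK2, hexokinase 2, which phosphorylates glucose (TC02000466.hg.1, chromosome 2), read 10.01 and 10.04 on the TCDD arrays, against 9.94 and 9.80 on the DMSO arrays. The DMSO arrays of both genes were 0.13 and 0.14 apart, near the size of the differences between the groups, which were 0.17 for SLC2A1 (SE 0.061, limma adjusted p = 0.0959) and 0.16 for HK2 (SE 0.064, limma adjusted p = 0.118). PDK1, a kinase that restrains entry of pyruvate into mitochondria (TC02001031.hg.1, chromosome 2), read 10.60 and 10.56 on the TCDD arrays, against 10.49 and 10.45 on the DMSO arrays. PFKFB4, an enzyme that sets the glycolytic activator fructose 2,6-bisphosphate (TC03003380.hg.1, chromosome 3), read 9.21 and 9.16 on the TCDD arrays, against 9.07 and 9.03 on the DMSO arrays. The DMSO arrays lay closer together in PDK1 and PFKFB4, at 0.039 and 0.036, than in the other 8 genes. Their differences were 0.11 for PDK1 (SE 0.052, limma adjusted p = 0.157), the smallest of the 10, and 0.14 for PFKFB4 (SE 0.052, limma adjusted p = 0.105). Under cyclic loess normalization PDK1 turned to -0.013 and under quantile normalization to -0.023, while SLC2A1, HK2 and PFKFB4 stayed positive at 0.046, 0.040 and 0.060 after cyclic loess.

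KDM3A and P4HA2 are HIF targets that are themselves oxygen-dependent enzymes of the 2-oxoglutarate class. KDM3A, a demethylase of histone H3 lysine 9 (TC02000524.hg.1, chromosome 2), read 9.82 and 9.79 on the TCDD arrays, against 9.68 and 9.55 on the DMSO arrays. P4HA2, a catalytic subunit of collagen prolyl 4-hydroxylase (TC05001763.hg.1, chromosome 5), read 9.44 and 9.43 on the TCDD arrays, against 9.31 and 9.23 on the DMSO arrays. Groups did not overlap in either gene. KDM3A averaged 9.80 ± 0.026 in TCDD and 9.62 ± 0.093 in DMSO (SD, n = 2 each), differing by 0.19 (SE 0.063, limma adjusted p = 0.082). P4HA2 averaged 9.43 ± 0.0070 in TCDD and 9.27 ± 0.057 in DMSO (SD, n = 2 each), differing by 0.16 (SE 0.055, limma adjusted p = 0.0819). After cyclic loess normalization KDM3A differed by 0.073 and P4HA2 by 0.068.

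**Figure D2:**
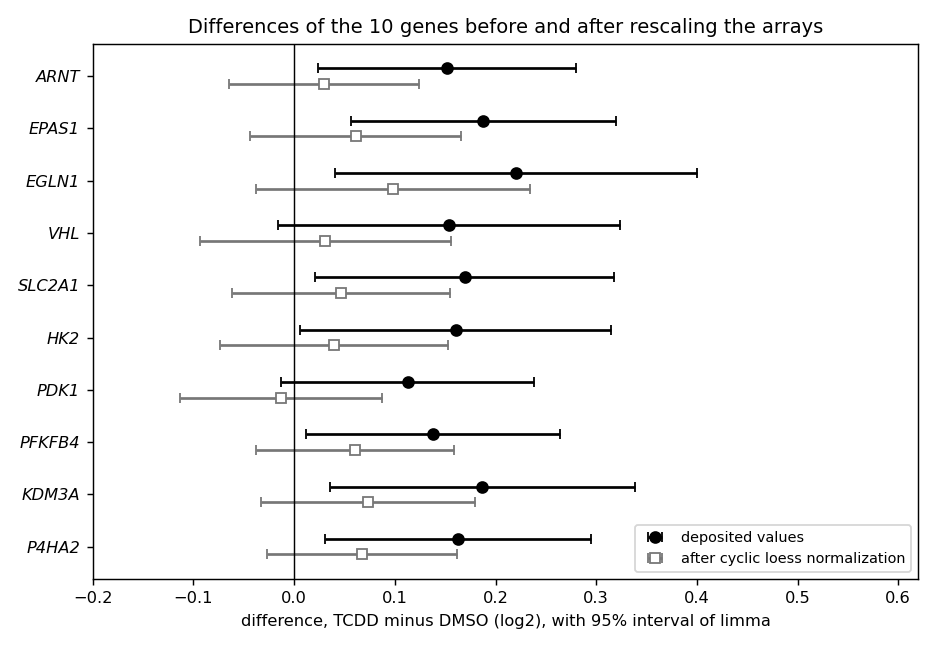
Difference between TCDD and DMSO (horizontal axis, log2) of each gene with its 95% interval from limma, for the deposited values (filled circles) and after cyclic loess normalization (open squares). The deposited differences lie between 0.11 and 0.22, those after normalization between -0.013 and 0.099, and all 10 intervals after normalization contain 0.

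The 10 differences were much alike. Around their mean of 0.16, single genes deviated by -0.052 (PDK1) to 0.056 (EGLN1), none by more than its own moderated standard error (0.052 to 0.074). Differences ran from 0.15 to 0.22 in ARNT, EPAS1, EGLN1 and VHL and from 0.11 to 0.19 in the other 6, and the contrast between these subsets was not tested. The 7 genes with ACGTG or GCGTG in a window differed by 0.11 (PDK1) to 0.22 (EGLN1). ARNT and P4HA2, whose windows held neither, differed by 0.15 and 0.16, within that range. Replicate gaps were uneven. The DMSO arrays differed by 0.036 to 0.20, with replicate 1 above replicate 2 in 10 of 10 genes, whereas the TCDD arrays differed by 0.0029 to 0.047 in size, with replicate 1 above replicate 2 in 7 of 10. Among the 3066 features of like signal, DMSO replicate 1 exceeded replicate 2 by a median of 0.078, and among the dimmest 25% of all features it was lower, with a median of -0.074.

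Differences between TCDD and DMSO depended on signal across the whole table. Median differences were -0.066 among 1886 features with a mean signal from 6 to 7, 0.0089 among 3278 features from 8 to 9, 0.11 among 2472 features from 9 to 10 and 0.12 among 1107 features from 10 to 11. Of the 10 genes, 6 lay in the bin from 9 to 10 and 4 in that from 10 to 11, where 81.0% and 91.0% of all features read higher in TCDD. After cyclic loess normalization the medians of these 2 bins were 0.015 and -0.00052, and the 10 genes had a median difference of 0.053. Then 0 of 10 were called and 0 of 10 had an unadjusted p under 0.05 by limma, against 14% and 35.1% of all features, and TCDD lay above DMSO without overlap in 7 of 10, against 34.4%. The upper ends of the 95% intervals after normalization reached at most 0.23 (EGLN1), or 1.18-fold, and the lower ends at least -0.11 (PDK1), or 0.924-fold.

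**Figure D3:**
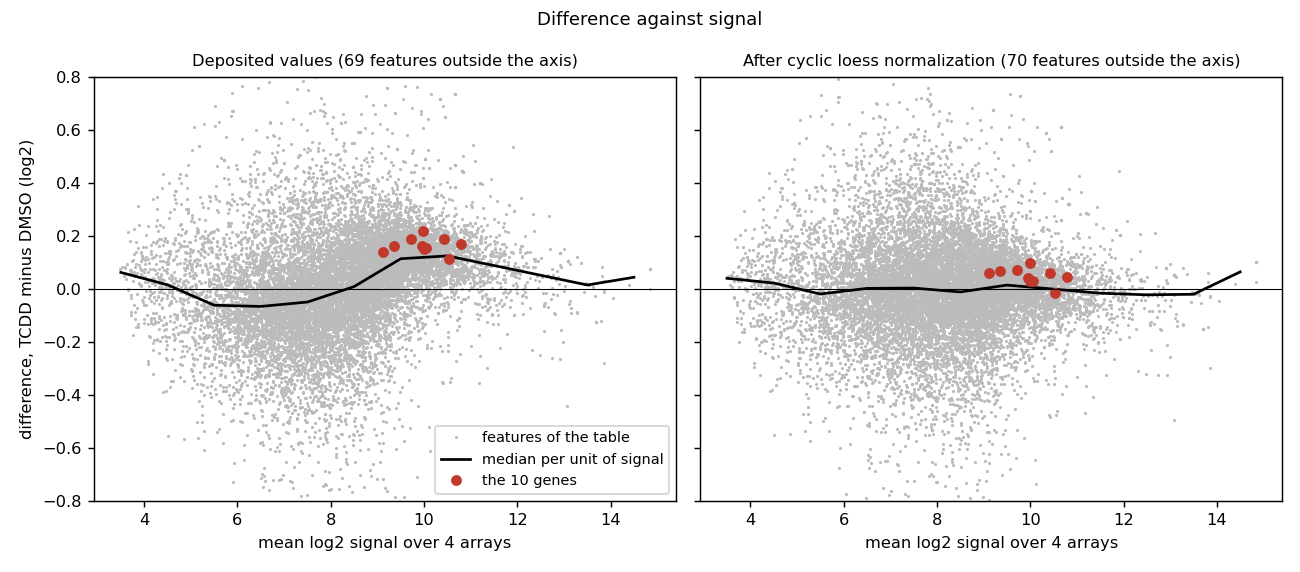
Difference between TCDD and DMSO (vertical axis, log2) against mean log2 signal (horizontal axis) for all features (grey), their median per unit of signal (line) and the 10 genes (red). In the deposited values the median line reaches 0.11 and 0.12 in the bins that hold the 10 genes, and after cyclic loess normalization it lies near 0 there.

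Leaving out a DMSO array moved the differences more than leaving out a TCDD array in all genes but PDK1 and PFKFB4. Without TCDD replicate 1 they ran from 0.093 to 0.21 and without TCDD replicate 2 from 0.13 to 0.23, with 0 of 10 called in either fit. Without DMSO replicate 2 they ran from 0.066 to 0.15 with 0 of 10 called. Without DMSO replicate 1 they ran from 0.13 to 0.32 and 8 of 10 were called higher (all but PDK1 and PFKFB4), against 19.1% of all features higher in that fit. With the remaining DMSO array alone in its group, its spread was taken to equal that of the TCDD arrays. Without a TCDD array the spread was taken from the DMSO arrays, and all 10 genes had the same standard error, 0.115. With all arrays it was 0.052 to 0.074. An absent call in these fits therefore does not show that a difference depended on the array left out.

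**Figure D4:**
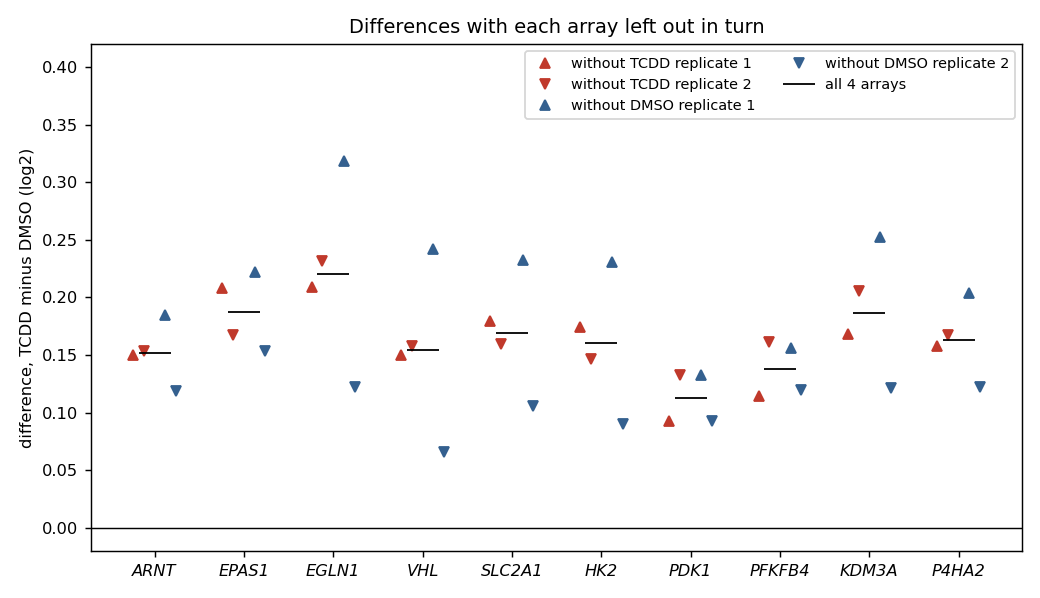
Difference between TCDD and DMSO (vertical axis, log2) of each gene with all 4 arrays (bars) and with 1 array left out (triangles). All values are above 0, and those without DMSO replicate 1 reach 0.32 in EGLN1 while those without DMSO replicate 2 fall to 0.066 in VHL.

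Other genes of the pathway were taken from lists, some of which share genes with the 10. Of 22 listed bHLH-PAS factors, clock partners and coactivators, 7 were measured and 0 were called by limma, with 2 at an unadjusted p under 0.05, EPAS1 and ARNT, both higher. Over all features 9.41% were called higher, 8.01% were called lower and 22.8% were higher at an unadjusted p under 0.05. The median difference of the listed genes was 0.093, against 0.023 over all features, and -0.023 after cyclic loess normalization. The coactivator NCOA1 differed by 0.094 (limma adjusted p = 0.224), and by -0.030 after cyclic loess normalization.

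Of 22 listed genes of oxygen sensing and HIF turnover, 8 were measured, with 1 called higher and 0 lower, against 9.41% and 8.01% of all features. Their median difference was 0.14, and 0.022 after cyclic loess normalization. The called gene was COMMD1, a copper-metabolism protein that also binds HIF-1 alpha. It averaged 9.14 in TCDD and 8.89 in DMSO, so that it rose by 0.25 (SE 0.054, limma adjusted p = 0.0318), and this call held after cyclic loess normalization at 0.18 (limma adjusted p = 0.0440). In the deposited values COMMD1 differed by 0.24 without TCDD replicate 1, 0.26 without TCDD replicate 2 and 0.21 without DMSO replicate 2.

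Of 66 other listed HIF targets, 25 were measured, with 2 called higher (KLHL24 and FAM162A) and 0 lower, against 9.41% and 8.01% of all features. Their median difference was 0.13, and 23 of 25 were above 0. Of all features with a mean signal from 8 to 9, 9 to 10 and 10 to 11, 52.5%, 81.0% and 91.0% were above 0. After cyclic loess normalization their median was 0.013. KLHL24, an adaptor of a ubiquitin ligase, averaged 9.80 in TCDD and 9.54 in DMSO, a rise of 0.26 (SE 0.051, limma adjusted p = 0.0248). FAM162A, a mitochondrial protein induced by hypoxia, averaged 9.83 in TCDD and 9.59 in DMSO, a rise of 0.23 (SE 0.060, limma adjusted p = 0.0470). After cyclic loess normalization KLHL24 (0.15) and FAM162A (0.12) were no longer called. Without TCDD replicate 1 the deposited differences of KLHL24 and FAM162A were 0.26 and 0.19, and without TCDD replicate 2 they were 0.26 and 0.27. Without DMSO replicate 2 they were 0.24 and 0.19.

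Of 47 listed genes of glucose uptake, glycolysis and pyruvate handling, 20 were measured and 0 were called by limma, against 9.41% of all features called higher and 8.01% called lower. At an unadjusted p under 0.05, 8 of the 20 were higher and 0 lower, against 22.8% of all features higher, and 40.4% of features within the signal range of the 10 genes. Their median difference was 0.12, and 0.035 after cyclic loess normalization. GYG1, which primes glycogen, differed by 0.19 (limma adjusted p = 0.0582), UGP2, which makes UDP-glucose, by 0.16 (limma adjusted p = 0.0686), and the branching enzyme GBE1 by 0.20 (limma adjusted p = 0.0778). Of 54 listed 2-oxoglutarate oxygenases, 17 were measured, with 2 called higher and 0 lower, against 9.41% and 8.01% of all features. Their median difference was 0.14, and 0.057 after cyclic loess normalization. KDM4A, a demethylase of histone H3 lysines 9 and 36, rose by 0.23 (SE 0.055, limma adjusted p = 0.0400), and TYW5, a hydroxylase of a modified base in transfer RNA, rose by 0.22 (SE 0.052, limma adjusted p = 0.0374). After cyclic loess normalization TYW5 was called (0.20, limma adjusted p = 0.0377) and KDM4A was not (0.12, limma adjusted p = 0.0915). In the deposited values TYW5 and KDM4A differed by 0.20 and 0.23 without TCDD replicate 1, and by 0.24 and 0.23 without TCDD replicate 2. Without DMSO replicate 2 they differed by 0.20 and 0.19.

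**Figure D5:**
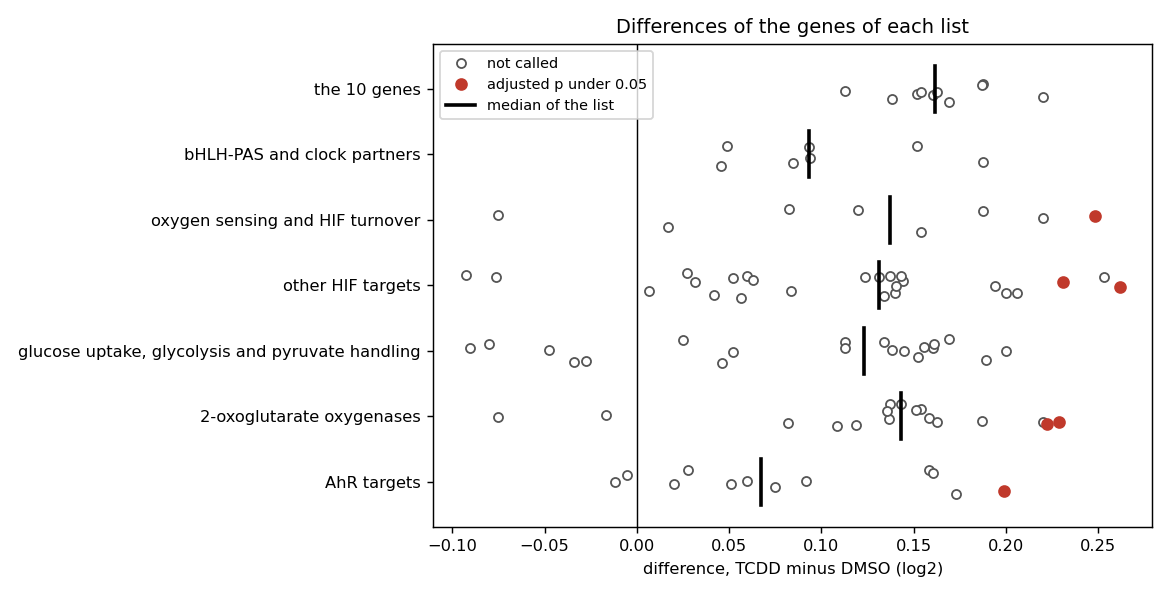
Difference between TCDD and DMSO (horizontal axis, log2) of each measured gene by list, with called genes filled and the median of each list as a bar. In the deposited values list medians lie between 0.067 (AhR targets) and 0.16 (the 10 genes), and called genes read 0.20 to 0.26 higher.

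Of 30 listed AhR targets 12 were measured by their brightest feature, with 1 called higher and 0 lower, against 9.41% and 8.01% of all features. Their median difference was 0.067, and 0.048 after cyclic loess normalization. The called gene was LMCD1, a LIM-domain cofactor, which rose by 0.20 (SE 0.052, limma adjusted p = 0.0482). Its call was lost after cyclic loess normalization (0.11). In the deposited values LMCD1 differed by 0.21 without TCDD replicate 1, 0.19 without TCDD replicate 2 and 0.17 without DMSO replicate 2. CYP1B1, a cytochrome P450 of the classical AhR response, had a brighter feature that differed by -0.012 and represented it here, and a dimmer one that was called at 0.24 (limma adjusted p = 0.0332). The dimmer feature had a mean signal of 7.83, below the 8.38 level, and the brighter one a mean signal of 8.41. The dimmer feature was also called after cyclic loess normalization (0.27, limma adjusted p = 0.0336) and after quantile normalization (0.27, limma adjusted p = 0.0452). In the deposited values the dimmer feature differed by 0.26 without TCDD replicate 1, 0.22 without TCDD replicate 2 and 0.21 without DMSO replicate 2.

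Markers of cell states and of other cell types moved in both directions. In the deposited values dimmer features tended to read lower in TCDD and brighter ones higher, as given above. Few markers of the other cell types lay above the 8.38 level. They were 1 of 6 measured immune, 1 of 4 endothelial, 0 of 3 epithelial and 1 of 2 Schwann and glial markers. Median differences were 0.091 for noradrenergic, 0.16 for mesenchymal, -0.078 for immune, -0.064 for endothelial, -0.0076 for epithelial and -0.16 for Schwann and glial markers. After cyclic loess normalization they were -0.013, 0.095, -0.053, -0.039, 0.026 and -0.18 in the same order. For the calls that follow, 9.41% of all features were called higher and 8.01% lower. Noradrenergic neuroblast markers summed to 97.2 and 97.3 log2 units over 9 genes on the TCDD arrays, against 97.1 and 96.3 on the DMSO arrays. Of these 9, HAND1 alone was called higher. Of 15 mesenchymal markers 8 were measured and PRRX1, TGFBR2 and NOTCH2 were called higher, with sums of 75.2 and 75.4 in TCDD, against 74.3 and 74.2 in DMSO. Of 11 immune markers 6 were measured, with FCGR3A called lower, sums of 43.9 and 44.0 in TCDD against 44.5 and 44.7 in DMSO, and PTPRC at 6.13 in TCDD and 6.24 in DMSO. For 4 endothelial, 3 epithelial and 2 Schwann and glial markers, 0 were called by limma. The endothelial sums were 29.1 and 29.2 in TCDD against 29.4 and 29.6 in DMSO, the epithelial sums 23.6 and 23.6 in TCDD against 23.7 and 23.6 in DMSO, and the Schwann and glial sums 16.8 and 16.7 in TCDD against 17.2 and 17.0 in DMSO. HAND1 differed by 0.22, PRRX1 by 0.26, TGFBR2 by 0.22, NOTCH2 by 0.22 and FCGR3A by -0.29. Without TCDD replicate 1, TCDD replicate 2 or DMSO replicate 2 the rises ran from 0.17 to 0.28 and FCGR3A from -0.31 to -0.25. Of these 5 calls, those of TGFBR2 and FCGR3A alone held after cyclic loess normalization. The part of these markers in the differences of the 10 genes was not tested.

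By the distance between mean-centred profiles over the 4 arrays, the named features most like ARNT were OR2T2 (distance 0.0070 log2 units), MRPS22 (0.0077) and KRCC1 (0.0086). OR2T2 is an olfactory receptor gene and MRPS22 encodes a mitochondrial ribosomal protein. In all, 742 of the other features with 1 symbol lay within 0.05 of the ARNT profile, so 4 arrays did not set it apart.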

How the data were processed

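RNA of SK-N-SH cells was labelled with biotin and hybridised to the Affymetrix Human Transcriptome Array, per the labels' protocols. The authors deposited log2 signals, for which the submitters' processing notes name RMA. Its version, settings, summary level and build are not given in the sources used here. Features of chromosomes 1 to 5 were analysed here, and HIF1A, AHR and CYP1A1 were not analysed here. Platform symbols were brought up to date with RefSeq names.

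Groups were taken from the titles. All 13493 features were fitted with limma 3.58.1 in R 4.3.3 (lmFit and eBayes, no block, 2 residual and 4.27 prior degrees of freedom). Tests were two-sided, with p-values adjusted over all features by Benjamini-Hochberg, with calls at an adjusted p under 0.05. Differences are TCDD minus DMSO, with moderated standard errors and 95% intervals. Precision is limited by having 2 arrays per group. The functions were tested on simulated data. For lists, a gene's brightest feature represented it, and no list was tested as a set. Named were the 10 genes, called genes of each list or else the 3 with the smallest p, and the 3 profiles nearest to ARNT. HAND2, GATA2, ISL1 and PTPRC were named as defining markers after their values were seen. The 10 genes and the lists were chosen with earlier results of these data known. Alternatives were a replicate block, quantile, cyclic loess and median scaling, filters on dim features, other variance settings, averaging by gene and leaving out each array.

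Replicate numbers are shared between the groups, but no label pairs the arrays.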

Additional observations from a re-analysis of the deposited data

How the results depend on the processing

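Of the 10 genes, 0 were called by limma over all features, and also under quantile, cyclic loess and median scaling, the trended robust prior and array weights. With the dimmest 25% or 50% of features left out 1 was called (EPAS1), with the features averaged by gene 4 (EPAS1, EGLN1, KDM3A and P4HA2), and over the fits that left out an array 0 to 8. Over all features kept, 2224 were called with the dimmest 25% left out and 1713 with the dimmest 50% left out. With the features averaged by gene 1806 were called. These fits hold fewer features than the 13493 of the main fit, of which 17.4% were called. At an unadjusted p under 0.05 and at least 1.5-fold, 0 of the 10 and 226 features passed. The 2351 calls over all features became 1478 under quantile normalization and 644 to 4661 with an array left out, lowest without DMSO replicate 2 and highest without DMSO replicate 1. Of 112 genes in the other lists, which include the 10, 11 were called, against 4 under quantile normalization, 4 after cyclic loess (all 4 among the 11), 7 with array weights, 25 averaged by gene and 0 to 46 with an array left out. The 11 of 112 genes are 9.82%, against 17.4% of all features called in either direction in the main fit. After cyclic loess normalization 14% of all features were called. Array weights gave 1848 calls over all features. A replicate block from the shared numbers gave 3634 calls over all features and 1 among the 10 (EGLN1, limma adjusted p = 0.0229). In that fit all 10 genes had the same standard error, 0.078, so the wide gap between the DMSO arrays of EGLN1 did not weigh on its call. Deviations of replicate 1 from the group means correlated at 0.037 between TCDD and DMSO, so the numbers were not taken as pairs. PDK1 reversed to -0.023 under quantile and -0.013 under cyclic loess normalization, and NCOA1 to -0.039 and -0.030. CLDN1, at -0.0076, reversed to 0.024 under quantile, 0.026 under cyclic loess and 0.0027 under median centring, while it ran from -0.033 to 0.017 with an array left out. The causes were not tested. Signal over background was not given, which limits statements on dim features.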
